A study of Homo sapiens with 18 samples.

Results

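The response of A549 lung adenocarcinoma cells to overexpression of RAD21 was followed across all genes in 6 of the 18 RNA-seq libraries of the study. The 6 libraries were taken by their labels: 3 carry the RAD21 overexpression construct (RAD21OE) and 3 the empty vector (EV, whose genotype is labelled wild type). Both groups were grown in RPMI 1640 with serum and are in the batch labelled July, 2024. The other libraries come from RAD21 knockdown in A549 and H358 and belong to another batch. A549 is an established line of adenocarcinoma cells that carries a defective KEAP1 gene, which leaves the antioxidant factor NRF2 active. The labels do not say how long the construct was expressed, whether the cells are 1 clone or a pool, or whether replicates came from separate cultures, so the spread behind the p-values may be technical.

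Cohesin is a ring built from the ATPase subunits SMC1A and SMC3 and the kleisin RAD21, which closes the ring and is the part that separase cuts when sister chromatids part. With a STAG subunit, the loader NIPBL and the releaser WAPL, the ring also extrudes chromatin loops that stop at sites bound by CTCF, and these loops bring enhancers to promoters. The study's title names H3K4me3, which marks the histones of active promoters, and ERK1/2, the last kinases of the MAPK cascade.

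The libraries held between 13024640 and 14276335 counts, and 15462 of 58735 genes had enough counts to be tested. The levels of most sets of defining markers fitted the A549 label. Summed epithelial markers were at 11116 to 11405 CPM (counts scaled by library total and TMM factor) with EV and 12840 to 16599 CPM with RAD21OE. CDKN2A, which is deleted in A549, had no counts, all 6 endothelial markers stayed below 1 CPM, and 5 of 6 markers of alveolar type 2 cells and 5 of 6 of blood cells did as well. Of the 7 fibroblast markers 3 were tested, and the sum was 35.4 to 42.4 CPM with EV and 29.6 to 42.2 CPM with RAD21OE. Markers of HEK293 packaging cells were not low as a set. Of these 6, 4 were tested and 1 was higher with RAD21OE. Their sum was 294 to 322 CPM with EV and 362 to 389 CPM with RAD21OE. RAD21OE replicate 3 stood apart from the rest: the log2 levels of genes differed from those of the other RAD21OE libraries by a median of 0.269 and 0.231 in absolute value, and replicates in the remaining pairs by 0.131 or less. Its values also followed GC content. Across genes, Spearman's rho of GC content with a library's difference from the mean of the 6 was -0.239, -0.320 and -0.216 in the EV libraries and -0.202, 0.0432 and 0.628 in the RAD21OE libraries. Beside a gene list, its counts are repeated where leaving out 1 library, or a correction for GC content and exon length, moved them by over 1.5 times.

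RAD21 was at 195, 209 and 194 CPM with EV and 1519.6, 1501 and 1306 CPM with RAD21OE. Every RAD21OE library lay far above every EV library, with replicate 3 the lowest of its group (log2 fold change 2.85, SE 0.08, adjusted p = 2.9e-10 by edgeR's quasi-likelihood test with Benjamini-Hochberg adjustment). The exact permutation test, two-sided, gave p = 0.1, below which 3 libraries against 3 cannot go. Reads of the construct and of the cell's own RAD21 are counted together, and 14.2% of its exons lie opposite another gene.

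The ATPase partners of RAD21 in the ring, SMC1A and SMC3, rose, where rose and fell mean an adjusted p under 0.05. SMC1A was at 219, 209 and 222 CPM with EV and 269, 269.9 and 286 CPM with RAD21OE, without overlap of the groups (log2 fold change 0.34, SE 0.07, adjusted p = 0.00425). The groups did not overlap for 45.4% of all genes tested. SMC3 was at 110.2, 117 and 112 CPM with EV and 148, 145 and 117 CPM with RAD21OE (log2 fold change 0.28, SE 0.10, adjusted p = 0.0449), and replicate 3 lay just above the EV range. The call for SMC3 was lost without EV replicate 1, 2 or 3 or RAD21OE replicate 1 or 2 (adjusted p up to 0.158). It was also lost with library totals alone, with at least 10 CPM in 3 libraries and by limma-voom. CTCF, the protein at loop anchors, was at 71.3, 67.4 and 70.4 CPM with EV and 103, 101 and 99.1 CPM with RAD21OE, also without overlap (log2 fold change 0.54, SE 0.08, adjusted p = 0.000446; 13.03% of its exons lie opposite another gene). CDCA5, which encodes sororin, the protector of cohesion, rose as well, from 67.8 ± 4.97 to 93.9 ± 8.27 CPM (mean ± SD, n = 3, log2 fold change 0.47, SE 0.09).

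**Figure D1:**
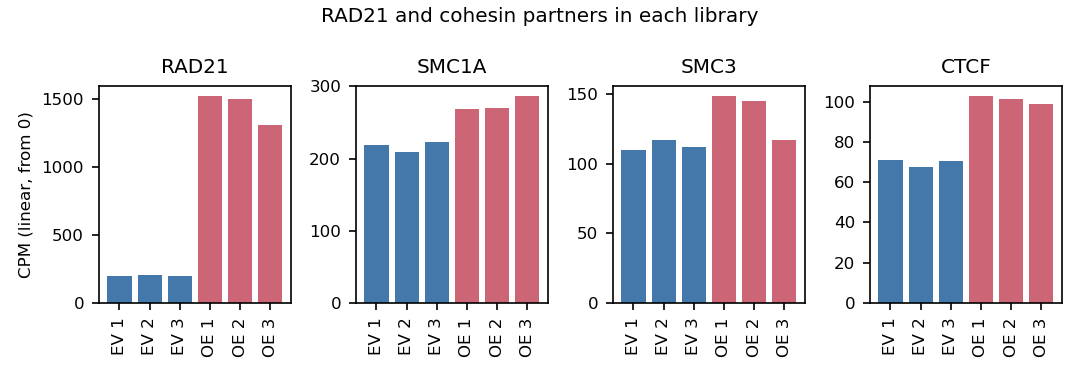
Level of RAD21, SMC1A, SMC3 and CTCF in each library, in CPM on linear axes from 0, with EV in blue and RAD21OE (OE) in red and each bar 1 library. RAD21 stands between 1306 and 1520 CPM in the RAD21OE libraries and between 194 and 209 CPM in the EV libraries, while the other genes differ by far less.

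Besides RAD21 itself, 4 of the 19 other tested cohesin genes rose and 3 fell, against 14.1% higher and 13.7% lower, 27.8% in either direction, of all genes tested. In bulk RNA fewer cells that express a gene and less RNA per cell cannot be told apart, here and below. Those that fell were ESCO1, an acetyltransferase of SMC3 (log2 fold change -0.62; the call was lost without EV replicate 1 or 3 (adjusted p up to 0.0875)), HDAC8, the SMC3 deacetylase (-0.44; the call was lost without EV replicate 1, 2 or 3 or RAD21OE replicate 2 (adjusted p up to 0.103)), and the meiotic kleisin REC8 (-0.51; the call was lost without EV replicate 1 or 2 or RAD21OE replicate 1 (adjusted p up to 0.112)). HDAC8 also lost its call by DESeq2's Wald test. The STAG subunits did not pass the test, with -0.08 for STAG1, -0.14 for STAG2 and -0.14 for STAG3. The same held for the loader genes NIPBL (0.12) and MAU2 (0.24), the releaser WAPL (-0.11) and its partners PDS5A (0.28, adjusted p = 0.0503) and PDS5B (0.15). ESCO2 (-0.05), the shugoshin gene SGO1 (0.14), the securin gene PTTG1 (-0.17) and the separase gene ESPL1 (0.11) did not pass either. Other genes lie opposite 21.2% of the exons of STAG1, 17.7% of SGO1's and 13.55% of STAG3's. STAG3 also shares 18.7% of its exon sequence on the same strand. The paralogs RAD21L1 and SMC1B had too few counts to be tested. RAD21 included, 5 of 20 were higher, with 8 higher after the correction, 9 higher without RAD21OE replicate 3, none lower without EV replicate 1, and 1 lower without EV replicate 2 or 3. NIPBL, MAU2, PDS5A, PDS5B and PTTG1 passed the threshold without RAD21OE replicate 3. Of the 15 tested genes of condensin and the SMC5/6 complex, the other ring complexes of chromosomes, 3 rose and none fell: NCAPH (0.30), NSMCE1 (0.48) and EID3 (0.39). Each lost its call without EV replicate 3, with adjusted p of up to 0.115, 0.0585 and 0.187 over the libraries left out. This list had none higher without EV replicate 3, 1 higher without EV replicate 1 or 2 or RAD21OE replicate 2, 6 higher without RAD21OE replicate 3, 7 higher after the correction, 1 lower without RAD21OE replicate 3, and 2 lower without RAD21OE replicate 1.

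Across all genes, 2177 were higher and 2120 lower with RAD21OE. The larger changes were mostly falls: 539 genes (3.49%) fell at least 2-fold and 161 (1.04%) rose at least 2-fold. The first principal component, with 57.6% of the variance, separated the EV from the RAD21OE libraries. The numbers depended on the libraries included: without EV replicate 1, 2 or 3 there were 1205, 1112 or 1336 genes higher and 1235, 1065 or 1369 lower. Without RAD21OE replicate 1, 2 or 3 there were 2433, 1640 or 2848 higher and 2456, 1432 or 2688 lower. Of the fifth of genes with the highest GC content 22.4% were higher, against 2.94% of the fifth with the lowest, and the groups of 3 libraries did not overlap for 45.4% of all genes. After the correction 3243 genes were higher and 2809 lower.

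Besides RAD21, the protein-coding gene with the largest rise among those with a mean of at least 4 CPM was SHISA3, an antagonist of WNT and FGF receptors. It was nearly silent with EV and was at 0.957, 1.06 and 0.367 CPM with EV and 8.12, 9.89 and 7.79 CPM with RAD21OE (log2 fold change 3.42, SE 0.27, adjusted p = 3.81e-06), so that the lowest RAD21OE library lay far above the highest EV library. KLF2, a zinc finger factor induced by flow in endothelium, was at 5.38, 6.52 and 6.68 CPM with EV and 23.9, 24.1 and 29.8 CPM with RAD21OE (log2 fold change 2.07, SE 0.15, adjusted p = 1.25e-06). OSGIN1, an oxidative stress gene, was at 72.4, 64.9 and 83.4 CPM with EV and 285, 268 and 325 CPM with RAD21OE (log2 fold change 1.99, SE 0.11, adjusted p = 1.22e-07). The groups overlapped for none of these 3 genes, which the rule for naming them requires. Of the exon sequence of OSGIN1, 13.9% is shared with another gene of the same strand.

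KRT4, a keratin of stratified mucosa, rose from 31.4 ± 4.84 to 103 ± 12.96 CPM, and ANKRD1, a cardiac ankyrin repeat protein and classical target of YAP, from 18.5 ± 1.75 to 56.5 ± 4.25 CPM (log2 fold changes 1.71 and 1.61). The other protein-coding genes with the largest rises had lower levels. They were the calcium-binding NECAB2 (1.67, SE 0.14), DRP2, a relative of dystrophin (1.58, SE 0.22), DLK2, a non-canonical NOTCH ligand (1.51, SE 0.19), and CDRT1 (1.61, SE 0.19). CDRT1 shares 31.3% of its exon sequence with another gene of the same strand, so its count is uncertain.

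Among falls at a mean of at least 4 CPM, that of C3, the central protein of complement, was the largest. It was at 93.7, 99.6 and 89.02 CPM with EV and 14.6, 16.1 and 18.7 CPM with RAD21OE (log2 fold change -2.52, SE 0.11, adjusted p = 2.09e-08), with every RAD21OE library far below every EV library. TGM2, the transglutaminase that cross-links matrix proteins, had the highest level of these genes and was at 628, 606 and 605 CPM with EV and 133, 138 and 170.3 CPM with RAD21OE (log2 fold change -2.06, SE 0.09, adjusted p = 2.76e-08). SPARC, a collagen-binding matricellular protein, fell from 16.6 ± 2.31 to 2.92 ± 0.732 CPM (mean ± SD, n = 3; log2 fold change -2.50, SE 0.19, adjusted p = 2.58e-06). None of the 3 overlapped between the groups, which the rule for naming them requires.

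Several further falls were in genes of the cell surface and matrix. SPOCK1, a matrix proteoglycan related to SPARC, fell from 16.6 ± 0.954 to 3.48 ± 0.936 CPM, and ITGA11, the collagen receptor chain of fibroblasts, from 18.5 ± 2.06 to 4.003 ± 0.276 CPM (log2 fold changes -2.25 and -2.20). ANPEP, the membrane aminopeptidase also called CD13, and SLITRK6, a neuronal adhesion protein, had log2 fold changes of -1.82 (SE 0.19) and -1.84 (SE 0.26). DOCK2, a RAC activator of blood cells, had -2.0 (SE 0.18), and CCNG2, an unconventional cyclin of arrested cells, -1.76 (SE 0.18). OASL, an interferon-induced relative of the oligoadenylate synthetases, had -1.87 (SE 0.16). The calls of these 20 genes of largest change held under every alternative that gave a value.

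**Figure D2:**
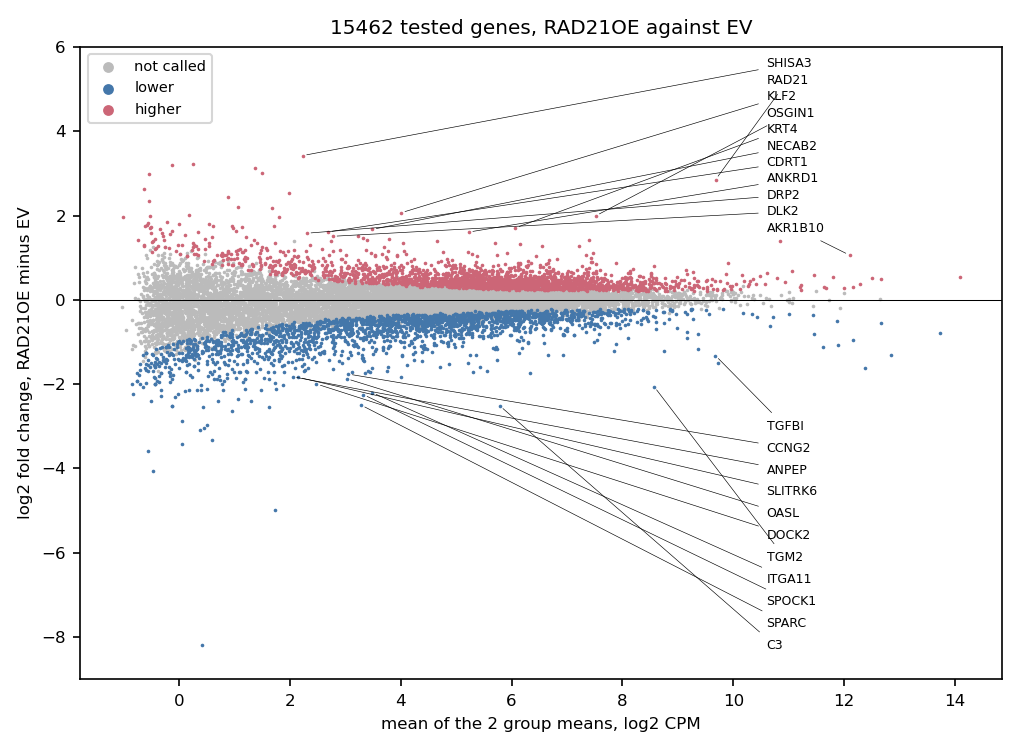
Log2 fold change of each of the 15462 tested genes (vertical axis, RAD21OE minus EV) against its mean level (horizontal axis, log2 CPM), with genes called higher in red, called lower in blue and not called in grey. RAD21 lies at 2.85 far above other genes of its level, and C3, TGM2 and TGFBI stand out below 0.

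By absolute level, the largest gain among nuclear protein-coding genes was in AKR1B10, an aldo-keto reductase that NRF2 induces. It was at 2881, 2869.6 and 2761 CPM with EV and 5608, 5777 and 6376 CPM with RAD21OE (log2 fold change 1.06, SE 0.07, adjusted p = 1.05e-06). The keratin pair of simple epithelia rose together, KRT8 from 5359 ± 65.4 to 7541 ± 1011 CPM and KRT18 from 2892 ± 87.2 to 4194 ± 600.1 CPM, with replicate 3 highest in both. ACTG1, cytoplasmic actin, rose from 4768 ± 147 to 6868 ± 511 CPM, FTL, the ferritin light chain, from 4326 ± 165 to 5631 ± 895 CPM, AKR1C2 from 2238 ± 161 to 3362 ± 242 CPM, and TKT, transketolase of the pentose phosphate pathway, from 1622 ± 46.1 to 2623 ± 363 CPM. For FTL the call was lost without EV replicate 2 (adjusted p up to 0.063). Another gene lies opposite 16.3% of KRT18's exons.

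The largest loss of level among nuclear protein-coding genes was in ALDH1A1, retinal dehydrogenase, at 7702, 7895 and 7401 CPM with EV and 5503, 5272 and 5028 CPM with RAD21OE (log2 fold change -0.54, SE 0.07, adjusted p = 0.00013). TGFBI, a matrix protein named for its induction by TGF-beta, was at 1216, 1149 and 1144 CPM with EV and 436, 437 and 531 CPM with RAD21OE (log2 fold change -1.32, SE 0.09, adjusted p = 7.77e-07). ITGB1, the integrin chain shared by most collagen, laminin and fibronectin receptors, was at 1913, 2024 and 1949 CPM with EV and 1349, 1287 and 1175 CPM with RAD21OE (log2 fold change -0.63, SE 0.07, adjusted p = 8.25e-05). The groups overlapped for none of them, which the rule for naming them requires. PRSS23, a secreted serine protease, fell from 843 ± 20.1 to 479 ± 15.3 CPM, and CYP24A1, which degrades vitamin D, from 1580.3 ± 166 to 1189 ± 41.2 CPM. Of PRSS23's exons, 11.9% lie opposite another gene. FN1, fibronectin, fell from 1919.5 ± 308 to 1452 ± 187 CPM, and ALDH3A1 from 2281 ± 78.7 to 1802 ± 261 CPM. For FN1 the call was lost without EV replicate 2 or RAD21OE replicate 2 (adjusted p up to 0.118). For ALDH3A1 the call was lost without EV replicate 2 or 3 or RAD21OE replicate 2 (adjusted p up to 0.0788).

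**Figure D3:**
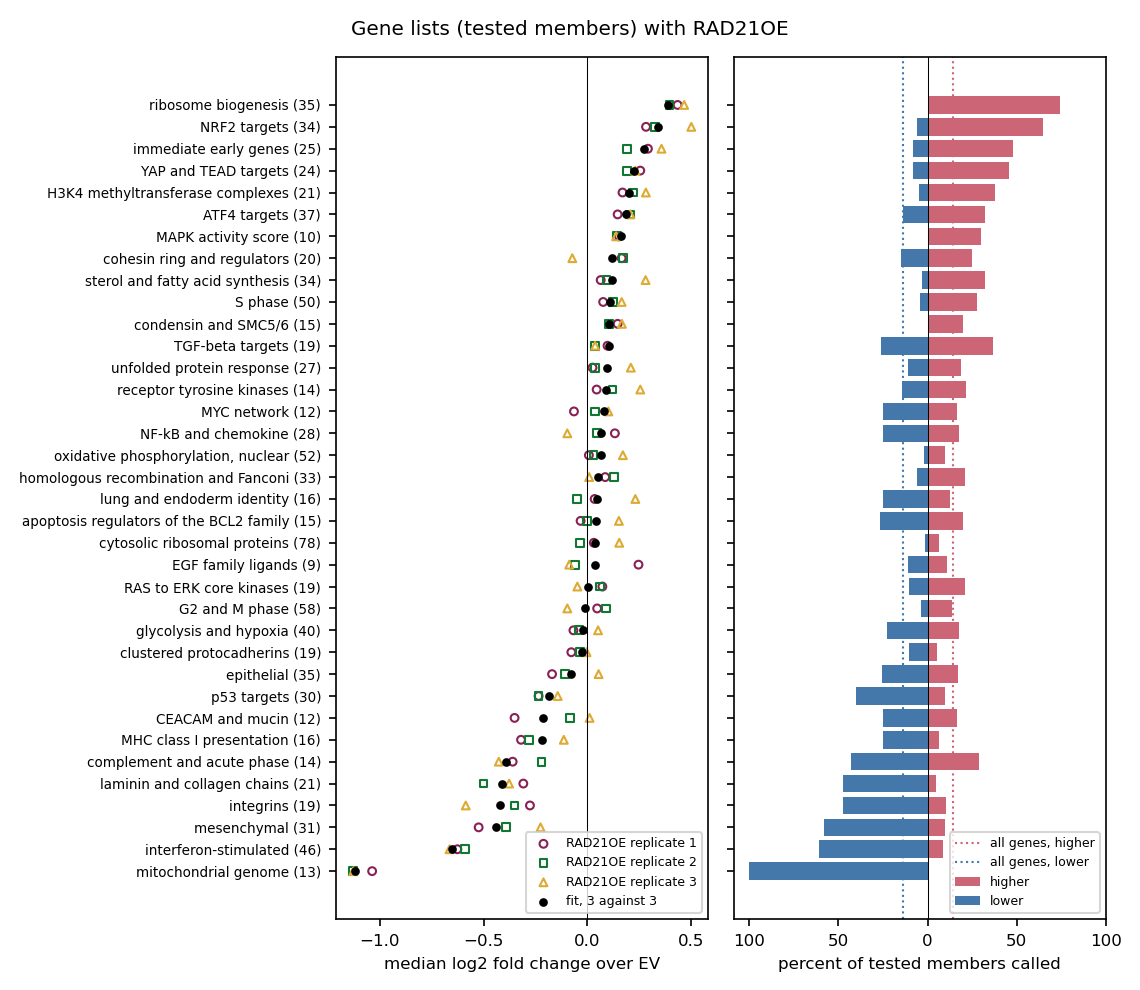
Left: median log2 fold change over the tested members of each gene list with at least 9 of them, in black for the fit of 3 against 3 libraries and with open symbols for each RAD21OE library over the mean of EV. Right: percent of tested members called higher (red, to the right) and lower (blue, to the left), with dotted lines at the 14.1% and 13.7% of all genes. The number of tested members is in parentheses; the mitochondrial genome (median -1.12) and interferon-stimulated genes (-0.65) lie lowest and ribosome biogenesis (0.39) highest.

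The counts of each list below are to be set beside the 14.1% higher and 13.7% lower of all genes tested. Of the lists of nuclear genes with at least 9 tested members, interferon-stimulated genes had the lowest median. Of 55, 46 had enough counts, and 28 of these fell and 4 rose, with a median log2 fold change of -0.65 against -0.01 over all genes tested. The median was -0.63, -0.59 and -0.66 in RAD21OE replicates 1, 2 and 3. OASL was at 11.5, 14.1 and 12.9 CPM with EV and 3.25, 3.52 and 3.71 CPM with RAD21OE. SAMD9, an antiviral restriction factor, was at 21.4, 21.1 and 18.8 CPM with EV and 7.21, 7.79 and 5.24 CPM with RAD21OE (log2 fold change -1.60, SE 0.15, adjusted p = 1.97e-05). IFIT2, which binds viral RNA, was at 11.2, 11.8 and 9.77 CPM with EV and 3.74, 4.80 and 3.42 CPM with RAD21OE (log2 fold change -1.45, SE 0.17, adjusted p = 8.81e-05), and the groups were far apart for these 3 genes. LGALS3BP, a secreted galectin ligand, fell from 159.5 ± 9.48 to 96.1 ± 11.7 CPM. Those that rose were OAS1, which senses double-stranded RNA (0.52, SE 0.10), the peptide transporter TAP1 (0.40), USP18, which removes ISG15 (0.41), and IFITM2 (0.39). Of the 4, OAS1 kept its call with each library left out, and TAP1, USP18 and IFITM2 lost it without EV replicate 2, with adjusted p of up to 0.0632, 0.163 and 0.175 over the libraries left out. With 1 library left out in turn, between 21 (without EV replicate 2) and 29 members were lower, and there were 1 higher without EV replicate 2, and 2 higher without EV replicate 1 or 3 or RAD21OE replicate 2. After the correction 30 were lower and 4 higher.

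The promoters of the fallen interferon-stimulated genes are shown because interferon induces such genes through a short element, to which IRF9 and other IRF proteins bind. The element was searched as GAAA, any 2 bases and GAAA again, and as TTTC, any 2 bases and TTTC for the other strand, in the 250 bases upstream of the start in RefSeq's GRCh38.p14 promoters. It was in 839 of 27305 promoters (3.07%), in 22 of the 44 list promoters held (50%), in 10 of the 21 of genes that fell (47.6%), in 1 of the 2 of genes that rose and in 5 of the 13 of tested genes that did not pass the test (38.5%). The window was shortened after a first count over the whole 300 bases held, 50 of them past the start, where these shares were 3.65% of all promoters, 61.4% of the list, 66.7% of genes that fell, 1 of 2 that rose and 46.2% of those that did not pass. Below are the 5 of the fallen genes with the smallest adjusted p for which a promoter was held, a choice made after the values were seen. Each runs 5' to 3' towards its gene, with matches in capitals.
IFI6, chr1:27672193-27672442, minus strand: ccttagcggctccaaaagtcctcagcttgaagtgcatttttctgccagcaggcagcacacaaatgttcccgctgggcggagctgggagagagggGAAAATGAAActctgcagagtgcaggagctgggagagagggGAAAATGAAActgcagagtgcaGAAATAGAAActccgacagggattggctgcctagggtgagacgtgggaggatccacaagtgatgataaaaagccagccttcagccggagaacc
PARP9, chr3:122564785-122565034, minus strand: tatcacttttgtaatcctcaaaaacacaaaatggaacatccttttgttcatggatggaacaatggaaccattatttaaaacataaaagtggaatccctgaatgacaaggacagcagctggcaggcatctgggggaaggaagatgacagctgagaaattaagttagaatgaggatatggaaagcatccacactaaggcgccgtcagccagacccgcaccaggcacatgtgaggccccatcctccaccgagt
SAMD9, chr7:93117980-93118229, minus strand: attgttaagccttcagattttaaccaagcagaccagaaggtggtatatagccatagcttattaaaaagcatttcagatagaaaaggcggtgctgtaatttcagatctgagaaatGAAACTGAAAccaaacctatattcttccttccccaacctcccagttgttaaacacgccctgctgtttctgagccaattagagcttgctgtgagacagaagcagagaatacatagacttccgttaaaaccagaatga
SAMD9L, chr7:93148386-93148635, minus strand: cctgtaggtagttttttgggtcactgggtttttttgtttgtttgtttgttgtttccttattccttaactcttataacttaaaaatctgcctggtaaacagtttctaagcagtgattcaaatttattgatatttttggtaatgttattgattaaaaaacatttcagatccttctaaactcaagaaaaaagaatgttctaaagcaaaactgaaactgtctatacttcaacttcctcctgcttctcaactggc
LGALS3BP, chr17:78979924-78980173, minus strand: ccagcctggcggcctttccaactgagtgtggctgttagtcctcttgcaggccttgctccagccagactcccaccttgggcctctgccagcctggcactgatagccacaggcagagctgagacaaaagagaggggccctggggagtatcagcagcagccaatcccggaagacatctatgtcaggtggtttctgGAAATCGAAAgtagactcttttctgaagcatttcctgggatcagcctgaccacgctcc
IFI6, which encodes a mitochondrial and endoplasmic reticulum protein, has 3 matches, SAMD9 and LGALS3BP have 1 each, and the windows of PARP9 and of SAMD9's neighbour SAMD9L hold none. All 5 genes fell, with log2 fold changes of -1.24, -1.60, -0.73, -0.97 and -1.56 in this order. A match describes the sequence only, and the binding of any factor was not measured.

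Of 31 tested mesenchymal genes, 18 fell and 3 rose (median -0.44). COL5A1, a fibrillar collagen chain, was at 133, 114 and 123 CPM with EV and 41.2, 32.7 and 37.8 CPM with RAD21OE (log2 fold change -1.73, SE 0.10, adjusted p = 3.48e-07). MMP2, a gelatinase, was at 19.7, 21.6 and 20.1 CPM with EV and 6.22, 5.77 and 7.13 CPM with RAD21OE (log2 fold change -1.68, SE 0.13, adjusted p = 3.81e-06), and LTBP2, a matrix protein of microfibrils from the list of TGF-beta targets, at 58.8, 63.5 and 59.9 CPM with EV and 17.7, 18.8 and 19.4 CPM with RAD21OE (log2 fold change -1.70, SE 0.10, adjusted p = 3.07e-07). The groups were apart by more than 2-fold for each. The 3 that rose were COL3A1 (log2 fold change 0.75, SE 0.16), the membrane protease MMP14 (0.83, SE 0.19) and the receptor tyrosine kinase AXL (0.38, SE 0.08). The factors of epithelial-mesenchymal transition ZEB1 (0.13), ZEB2 (0.03), SNAI1 (0.11), TWIST1 (0.10) and TWIST2 (0.23) did not pass the test, nor did VIM, vimentin (0.04). With 1 library left out, between 12 (without EV replicate 2) and 20 (without RAD21OE replicate 3) mesenchymal genes were lower and 3 higher.

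Of 21 laminin and collagen chains 10 fell and 1 rose (median -0.41). LAMA3, a chain of the epithelial laminin of hemidesmosomes, fell from 122 ± 0.240 to 67.9 ± 1.40 CPM, and COL4A1, of basement membranes, from 80.4 ± 6.04 to 44.96 ± 3.27 CPM. COL7A1, of anchoring fibrils, was the 1 that rose (0.22; the call was lost without EV replicate 1, 2 or 3 or RAD21OE replicate 2 (adjusted p up to 0.175) and after correction for GC content and exon length (adjusted p = 0.261)). Of 19 integrin genes 9 fell and 2 rose (median -0.42), among the falls ITGAV (-0.54, SE 0.12) and ITGB6 (-1.41, SE 0.27; 20.6% of exon sequence shared on the same strand), which pair in a receptor that activates TGF-beta. ITGA8 went from 0.149 ± 0.0734 to 1.23 ± 0.288 CPM and passed the test, and ITGA6, of the laminin receptor, had 0.25, where the call was lost without EV replicate 1, 2 or 3 or RAD21OE replicate 1 or 2 (adjusted p up to 0.149). Integrin genes counted 1 higher without EV replicate 1, 2 or 3 or RAD21OE replicate 2, and 4 lower without EV replicate 2.

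Targets of TGF-beta split. Of 19 tested, 7 rose and 5 fell (median 0.10). The inhibitor SMAD6 and the ID genes, which are targets of BMP signalling, were among those that rose: SMAD6 went from 124 ± 8.40 to 211 ± 9.72 CPM, ID1 from 167 ± 6.73 to 304 ± 52.3 CPM, ID2 from 70.2 ± 5.09 to 110.4 ± 0.718 CPM and ID3 from 162 ± 13.8 to 231 ± 41.1 CPM. The falls included TGFBI, LTBP2, ITGB6 and PMEPA1, a feedback inhibitor of TGF-beta, which fell from 321 ± 19.2 to 138 ± 14.9 CPM. Of 24 targets of YAP and TEAD 11 rose and 2 fell (median 0.23), with ANKRD1 at 17.8, 17.2 and 20.5 CPM with EV and 60.7, 56.5 and 52.2 CPM with RAD21OE. CCN1, a matricellular protein, rose from 53.7 ± 5.72 to 88.96 ± 4.61 CPM, and AMOTL2, a scaffold that holds YAP, had a log2 fold change of 0.46 (SE 0.09). NT5E (-0.35) and TGFB2 (-0.56, SE 0.13) fell, and for NT5E the call was lost without EV replicate 1 or 2 or RAD21OE replicate 2 (adjusted p up to 0.133). The YAP list had 5 higher without EV replicate 1, 6 higher without EV replicate 3, 7 higher without EV replicate 2, and 1 lower without EV replicate 1 or 2 or RAD21OE replicate 2, and the TGF-beta list 4 higher without EV replicate 1 or 3.

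Other complement genes that fell beside C3 were C1S from 92.5 ± 4.39 to 47.2 ± 5.45 CPM and C1R from 23.8 ± 1.94 to 14.8 ± 2.27 CPM, the proteases that start the classical pathway, and CD59, which blocks the membrane attack complex, from 151 ± 4.56 to 111 ± 6.49 CPM. The fibrinogen chains FGA (0.89), FGB (0.45) and FGG (0.61) and C1QBP (0.41) rose, so that of 14 tested genes of complement and the acute phase 6 fell and 4 rose (median -0.39). For FGB the call was lost without EV replicate 1 or 3 or RAD21OE replicate 2 (adjusted p up to 0.125). For FGG the call was lost without EV replicate 1 or 3 (adjusted p up to 0.0873). This list had 2 higher without EV replicate 1 or 3, and the correction left 5 higher and 4 lower with a median of -0.10.

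**Figure D4:**
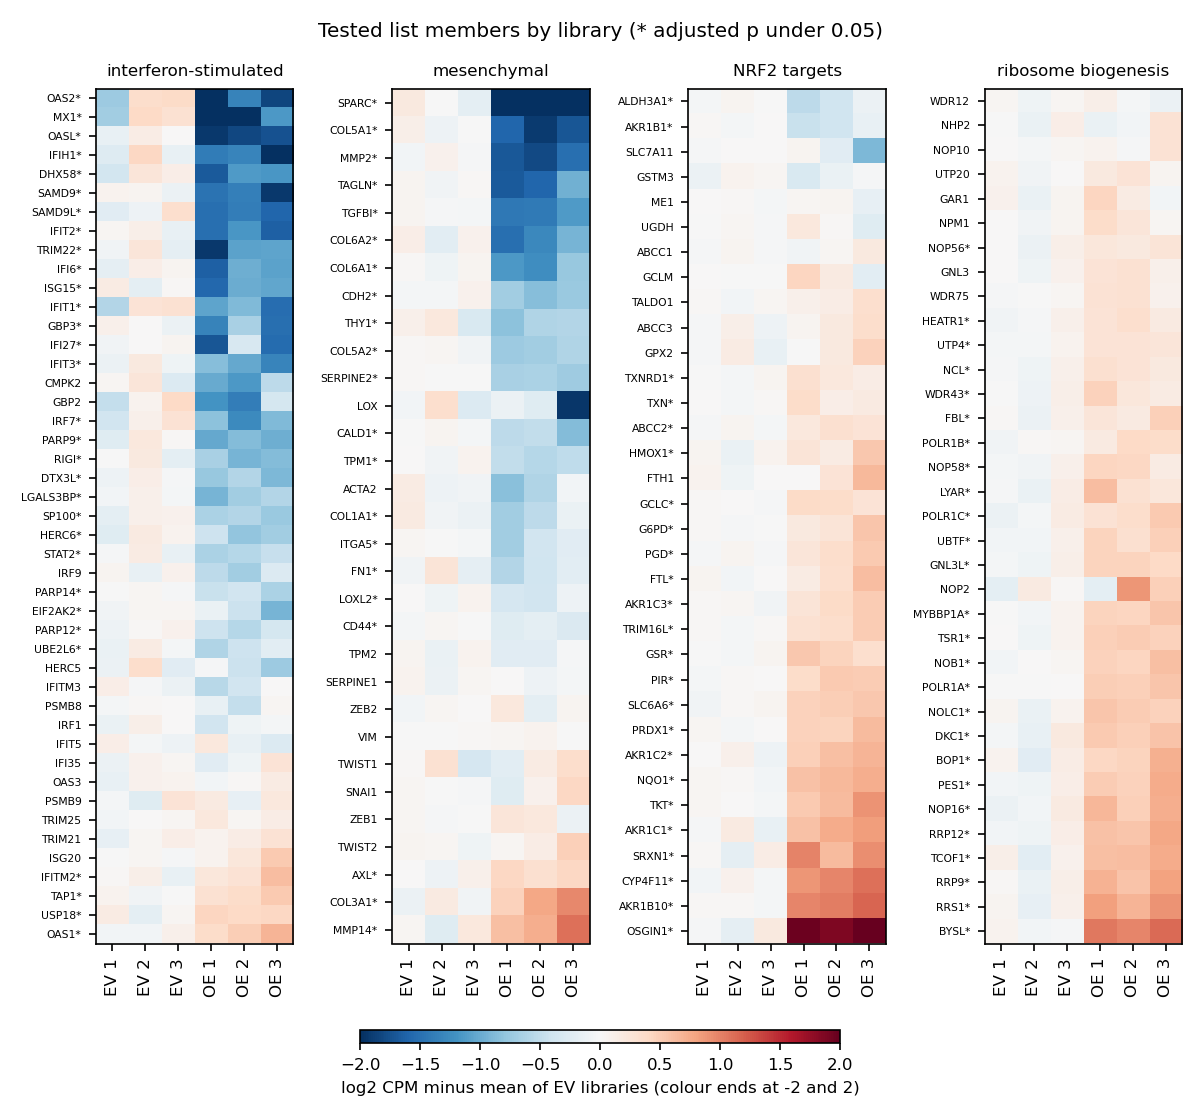
Log2 CPM of tested members of 4 gene lists in each library, minus the mean of the EV libraries, from blue (-2 and below) to red (2 and above); an asterisk marks an adjusted p under 0.05. Most interferon-stimulated and mesenchymal genes are blue and most targets of NRF2 and genes of ribosome biogenesis red in all 3 RAD21OE (OE) libraries. Replicate 3, which stands apart across all genes, differs visibly from its replicates in genes such as SLC7A11.

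Of 34 targets of NRF2, 22 rose and 2 fell, with a median of 0.34, and the median was 0.28, 0.33 and 0.50 in RAD21OE replicates 1, 2 and 3. NQO1, the quinone reductase, was at 1244, 1225 and 1157 CPM with EV and 1809, 1884 and 1991 CPM with RAD21OE (log2 fold change 0.65, SE 0.07, adjusted p = 4.59e-05), without overlap, as for 45.4% of all genes tested. CYP4F11, a fatty acid hydroxylase, rose from 115 ± 5.95 to 229 ± 18.5 CPM. OSGIN1 and AKR1B10, given above, also belong to this list, as do the falls of ALDH3A1 and of AKR1B1 (log2 fold change -0.32; the call was lost without EV replicate 1 or 3 or RAD21OE replicate 2 (adjusted p up to 0.064)). SLC7A11, the cystine transporter, did not pass the test (-0.30) and was at 498, 509 and 508 CPM with EV and 526, 433 and 270.0 CPM with RAD21OE, with replicate 3 far below the other libraries. Between 17 (without any EV library) and 24 (without RAD21OE replicate 1) targets were higher with 1 library left out, and there were none lower without EV replicate 3 or RAD21OE replicate 2, and 1 lower without EV replicate 1 or 2.

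Among lists with at least 9 tested members, ribosome biogenesis had the highest median, 0.39, and 26 of its 35 genes rose and none fell. BYSL, needed for the small subunit, was at 36.2, 33.2 and 33.9 CPM with EV and 71.8, 67.6 and 75.8 CPM with RAD21OE (log2 fold change 1.06, SE 0.09, adjusted p = 7.81e-06). RRS1, of the large subunit, was at 57.8, 49.9 and 60.01 CPM with EV and 98.7, 89.5 and 104 CPM with RAD21OE (log2 fold change 0.80, SE 0.10, adjusted p = 0.000117), and RRP12, an export factor, at 96.02, 94.8 and 110.2 CPM with EV and 151, 147 and 170.3 CPM with RAD21OE (log2 fold change 0.64, SE 0.09, adjusted p = 0.000337). POLR1A, the largest subunit of RNA polymerase I, rose from 222 ± 0.753 to 315 ± 9.08 CPM. The groups overlapped for none of these 4 genes, as for 45.4% of all genes tested. Without EV replicate 1 or 2 there were 16 members higher and without RAD21OE replicate 2 there were 17, and without RAD21OE replicate 3, as after the correction for GC content, there were 31. The 78 cytosolic ribosomal protein genes had 5 higher and 1 lower and a median of 0.04, with none higher without EV replicate 2 or 3, 1 higher without EV replicate 1, 2 higher without RAD21OE replicate 2, 8 higher after the correction, none lower without EV replicate 1, 2 or 3 or RAD21OE replicate 2, 2 lower without RAD21OE replicate 1, 3 lower after the correction, and 5 lower without RAD21OE replicate 3.

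ATF4 drives the integrated stress response, and of 37 of its targets 12 rose and 5 fell (median 0.19), and the amino acid transporters SLC1A5 and SLC1A4 rose from 279 ± 7.11 to 484 ± 57.2 CPM and from 32.2 ± 0.998 to 56.8 ± 5.14 CPM. The tRNA synthetase genes AARS1 (0.53, SE 0.08) and GARS1 (0.45, SE 0.07) rose too, while SLC38A2 fell (-0.51; the call was lost without EV replicate 2 (adjusted p up to 0.0513)). ATF4 targets counted none lower without EV replicate 2, and 2 lower without EV replicate 1 or 3 or RAD21OE replicate 2. Of 27 genes of the unfolded protein response 5 rose and 3 fell (18.5% and 11.1%), against 14.1% and 13.7% of all genes tested. HSPA5 was at 0.30, SEC24D at 0.62 and HSP90B1 at -0.34. This list had 8 higher after the correction, and 1 lower without EV replicate 1 or 2. Of 34 genes of sterol and fatty acid synthesis 11 rose and 1 fell. FASN, the fatty acid synthase, rose from 655 ± 34.2 to 919 ± 120.0 CPM. Genes of this synthesis counted 5 higher without EV replicate 2, 6 higher without EV replicate 3, 7 higher without EV replicate 1, none lower without EV replicate 2, 2 lower without RAD21OE replicate 3 or after the correction, and 3 lower without RAD21OE replicate 1. Of 40 genes of glycolysis and hypoxia 7 rose and 9 fell (17.5% and 22.5%, median -0.02), against 14.1% and 13.7% of all genes tested. ADM, adrenomedullin, was at 68.3, 66.04 and 73.9 CPM with EV and 135, 131 and 137 CPM with RAD21OE (log2 fold change 0.95, SE 0.08, adjusted p = 6.93e-06), and the glycolytic regulator PFKFB3 rose from 618 ± 14.6 to 859.6 ± 61.9 CPM. BNIP3L, a mitophagy receptor, and EGLN1, the oxygen sensor that marks HIF for decay, fell (-0.62 and -0.58). The list had 2 lower without EV replicate 1, 3 lower without EV replicate 2, 4 lower without RAD21OE replicate 2, 5 lower without EV replicate 3 or RAD21OE replicate 1, and 14 lower without RAD21OE replicate 3.

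All 13 mRNAs of the mitochondrial genome fell, with a median of -1.12, and their share of the total counts with the other mitochondrial RNAs was 7.87% to 8.51% with EV and 5.34% to 5.76% with RAD21OE. MT-CO3, a subunit of cytochrome c oxidase, was at 7842, 8233 and 8037 CPM with EV and 2578, 2552 and 2749.7 CPM with RAD21OE (log2 fold change -1.61, SE 0.07, adjusted p = 1.64e-08). MT-ND6, the mRNA of the other strand, was at 1202, 1265 and 1280.5 CPM with EV and 553, 426 and 344 CPM with RAD21OE (log2 fold change -1.50, SE 0.13, adjusted p = 6.95e-06), and MT-ND4 at 9971, 11065 and 10399.8 CPM with EV and 4106, 4358 and 4303 CPM with RAD21OE (log2 fold change -1.30, SE 0.07, adjusted p = 1.22e-07). The groups were separate for all 13 mRNAs, down to MT-ND2 with the smallest change (-0.37; the call was lost without EV replicate 2 or 3 (adjusted p up to 0.0694)). MT-ATP8 lost its call by DESeq2's Wald test and with robust dispersion.

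The ribosomal RNAs of the same genome went the other way. MT-RNR1 was at 907, 1081 and 1037 CPM with EV and 2832, 2560.4 and 2596 CPM with RAD21OE (log2 fold change 1.40, SE 0.08, adjusted p = 3.07e-07), and MT-RNR2 at 13772, 14993 and 13706 CPM with EV and 20914, 21899 and 19399.8 CPM with RAD21OE (log2 fold change 0.55, SE 0.07, adjusted p = 0.000169). MT-TV, the tRNA between them, rose alike (log2 fold change 1.41, SE 0.15, adjusted p = 4.64e-05), whereas of the other 16 tested tRNAs 7 passed the test as lower and none as higher. These calls changed with the correction for GC content and exon length: MT-TR (1.30), MT-TH (0.81) and MT-TG (0.57) were then higher, and MT-TN and MT-TD were no longer called. MT-TR and MT-TH were also called higher without RAD21OE replicate 3, and MT-TN lost its call without EV replicate 1 or 3 or RAD21OE replicate 2. Some tRNAs called lower rest on few counts. MT-TS1 had 33, 39 and 35 with EV and 17, 9 and 3 with RAD21OE, and MT-TT 41, 51 and 54 and 14, 15 and 11. The selection of mRNA for these libraries is not stated, and whether it bears on the levels of ribosomal RNAs and tRNAs was not tested. Among the 52 nuclear genes of oxidative phosphorylation 5 rose and 1 fell (median 0.07), led by CYC1, cytochrome c1, from 216 ± 12.5 to 314 ± 38.9 CPM. This nuclear list had 1 higher without EV replicate 2 or 3, 2 higher without EV replicate 1, 12 higher after the correction, none lower without EV replicate 1, 2 or 3 or RAD21OE replicate 2, and 2 lower without RAD21OE replicate 3 or after the correction.

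**Figure D5:**
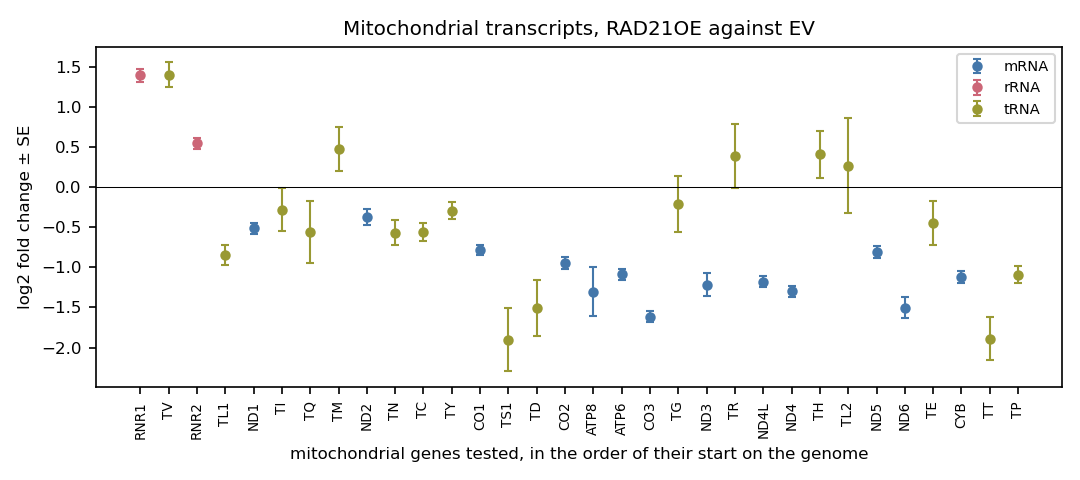
Log2 fold change ± SE of the 32 tested genes of the mitochondrial genome in the order of their start, with mRNAs in blue, ribosomal RNAs in red and tRNAs in olive. The mRNAs lie between -1.61 and -0.37, and the 3 called higher are MT-RNR1 (1.40), MT-TV (1.41) and MT-RNR2 (0.55).

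Genes of the H3K4 methyltransferase complexes, the subject named in the title of the study, had small differences. Of 21, 8 rose and 1 fell, with a median of 0.20. KMT2B, a methyltransferase of promoters, was at 164, 165 and 185 CPM with EV and 221, 237 and 268 CPM with RAD21OE (log2 fold change 0.50, SE 0.09, adjusted p = 0.00141). HCFC1, a subunit shared by several complexes, was at 227, 209 and 236 CPM with EV and 306, 308 and 357 CPM with RAD21OE (log2 fold change 0.53, SE 0.08, adjusted p = 0.000744), and SETD1A, which lays down much of H3K4me3, at 74.2, 72.6 and 73.4 CPM with EV and 90.4, 97.1 and 109 CPM with RAD21OE (log2 fold change 0.43, SE 0.09, adjusted p = 0.00383). None of them overlapped between the groups, which held for 45.4% of all genes tested. MEN1, menin, rose from 42.1 ± 1.05 to 58.7 ± 5.46 CPM (log2 fold change 0.48). After the correction for GC content and exon length these log2 fold changes were smaller, and each gene kept its call. They were 0.37 for KMT2B, 0.40 for HCFC1, 0.30 for SETD1A and 0.35 for MEN1. The list then had 11 higher and 1 lower, with a median of 0.19.

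The rises of the other 4 genes were smaller: SETD1B (0.28; the call was lost without EV replicate 1, 2 or 3 or RAD21OE replicate 2 (adjusted p up to 0.126) and after correction for GC content and exon length (adjusted p = 0.0683)), WDR5 (0.30; the call was lost without EV replicate 1 or 2 (adjusted p up to 0.11)), CXXC1 (0.36; the call was lost without EV replicate 1 or 2 or RAD21OE replicate 2 (adjusted p up to 0.132)) and PAXIP1 (0.28; the call was lost without EV replicate 1, 2 or 3 or RAD21OE replicate 1 or 2 (adjusted p up to 0.162)). PSIP1, the chromatin tether LEDGF, fell from 106 ± 0.887 to 73.8 ± 16.1 CPM. The catalytic subunits KMT2A (0.00), KMT2C (0.15) and KMT2D (0.20, adjusted p = 0.0513) did not pass the test, nor did the core subunits RBBP5 (0.20), ASH2L (-0.20) and DPY30 (0.14). For WDR82 (0.17), NCOA6 (0.23), PAGR1 (0.18), KDM6A (-0.21), BOD1 (0.15) and BOD1L1 (-0.25) the test was not passed either. Without EV replicate 1, 2 or 3 there were 4, 4 or 6 higher, without RAD21OE replicate 2 there were 5, and without RAD21OE replicate 3 there were 12.

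Of the 7 demethylase genes KDM1B (0.43, SE 0.11; the call was lost without EV replicate 1 or 2 or RAD21OE replicate 2 (adjusted p up to 0.0831)) and KDM5D (0.35, SE 0.11; the call was lost without EV replicate 1, 2 or 3 or RAD21OE replicate 2 (adjusted p up to 0.149)) rose. KDM5A (-0.18), KDM5B (-0.20), KDM5C (0.22), KDM1A (0.00) and KDM2B (0.18) did not pass the test. Demethylases counted none higher without EV replicate 1 or 2 or RAD21OE replicate 2, 1 higher without EV replicate 3, and 2 lower without RAD21OE replicate 3. The histone mark itself was not measured in these libraries.

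ERK signalling was read from a published score of 10 genes of MAPK activity, of which 3 rose and none fell (median 0.16). EPHA2, a receptor of the Eph family, was at 249, 239 and 274 CPM with EV and 365, 352 and 416 CPM with RAD21OE (log2 fold change 0.57, SE 0.09, adjusted p = 0.000459), and ETV4, an ETS factor downstream of ERK, at 73.1, 74.0 and 62.1 CPM with EV and 85.4, 91.8 and 106 CPM with RAD21OE (log2 fold change 0.44, SE 0.10, adjusted p = 0.0079), both without overlap, as for 45.4% of all genes tested. For ETV4 the call was lost without EV replicate 3 (adjusted p up to 0.0546). The correction for GC content and exon length left EPHA2 at 0.44 and ETV4 at 0.31, both still called. The score then had 2 higher and none lower, with a median of 0.11. CCND1, cyclin D1, was at 562, 534 and 577 CPM with EV and 758, 667 and 584 CPM with RAD21OE (log2 fold change 0.27, SE 0.09, adjusted p = 0.0432), and the call was lost without EV replicate 1, 2 or 3 or RAD21OE replicate 1 or 2 (adjusted p up to 0.161) and after correction for GC content and exon length (adjusted p = 0.13). CCND1 also lost its call with library totals alone and with at least 10 CPM in 3 libraries. The feedback inhibitors SPRY2 (0.21), SPRY4 (0.15), DUSP4 (0.02) and DUSP6 (0.08) did not pass the test, and neither did PHLDA1 (-0.21), EPHA4 (-0.44) and ETV5 (0.18). Another gene lies opposite 40.5% of the exons of DUSP6, 16.5% of those of PHLDA1 and 10.3% of those of CCND1, which makes these counts less certain. The score had 1 higher without EV replicate 3, and 1 lower without RAD21OE replicate 1.

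Of 25 tested immediate early genes, which growth factors induce within minutes, 12 rose and 2 fell (median 0.28). FOSL1, the AP-1 subunit FRA1, was at 29.2, 21.7 and 37.8 CPM with EV and 79.97, 66.5 and 78.7 CPM with RAD21OE (log2 fold change 1.34, SE 0.16, adjusted p = 8.97e-05). DUSP5, an ERK phosphatase of the nucleus, was at 48.97, 57.01 and 57.7 CPM with EV and 91.8, 105 and 112 CPM with RAD21OE (log2 fold change 0.91, SE 0.10, adjusted p = 5.64e-05), and KLF4 rose from 15.7 ± 1.92 to 24.8 ± 1.85 CPM. JUNB, another AP-1 subunit, went the opposite way, at 74.4, 65.6 and 70.4 CPM with EV and 30.1, 28.3 and 37.2 CPM with RAD21OE (log2 fold change -1.14, SE 0.11, adjusted p = 2.59e-05; 14.2% of its exons lie opposite another gene). BTG2, an antiproliferative gene, fell (-0.47; the call was lost without EV replicate 2 (adjusted p up to 0.0504)). Immediate early genes counted 1 lower without EV replicate 2, and 7 lower without RAD21OE replicate 3 or after the correction.

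Of 19 genes of the cascade from RAS to ERK 4 rose and 2 fell (21.1% and 10.5%, median 0.00), against 14.1% and 13.7% of all genes tested. The rises were HRAS (0.48), ARAF (0.32), KSR1 (0.37) and GRB2 (0.24). HRAS kept its call with each library left out, while ARAF, KSR1 and GRB2 lost it without EV replicate 1, with adjusted p of up to 0.103, 0.0601 and 0.108 over the libraries left out. BRAF fell (-0.47; the call was lost without EV replicate 2 or 3 (adjusted p up to 0.117)). The cascade had 1 higher without EV replicate 1, 2 higher without EV replicate 2 or 3, 7 higher after the correction, none lower without EV replicate 2 or 3, 1 lower without EV replicate 1 or RAD21OE replicate 2, and 4 lower without RAD21OE replicate 3. Among 9 EGF family ligands AREG, amphiregulin, rose from 29.6 ± 2.97 to 48.2 ± 2.04 CPM and NRG4 fell (-0.77; the call was lost without EV replicate 2 or 3 (adjusted p up to 0.0649)), with 2 higher without EV replicate 3 or RAD21OE replicate 3, and none lower without EV replicate 2 or 3. Of NRG4's exons, 38.1% lie opposite another gene, so its count is less certain. Among 14 receptor tyrosine kinases FGFR1 rose from 215 ± 4.56 to 335 ± 30.1 CPM, AXL and FGFR3 (0.44) rose, and IGF1R fell from 468 ± 19.9 to 387 ± 13.7 CPM, as did ROS1 at about 1 CPM (-2.29). For FGFR3 the call was lost without EV replicate 2 or 3 (adjusted p up to 0.083). For IGF1R the call was lost without EV replicate 2 or RAD21OE replicate 2 (adjusted p up to 0.0787). Receptor kinases counted 6 higher without RAD21OE replicate 3, and 1 lower without EV replicate 2 or RAD21OE replicate 2.

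Among cell cycle genes, the 58 genes of G2 and mitosis had 8 higher and 2 lower members (13.8% and 3.45%, median -0.01), against 14.1% and 13.7% of all genes tested. CDC20, the activator of the anaphase-promoting complex, rose from 106 ± 11.1 to 149 ± 21.1 CPM. The 50 S phase genes had 14 higher and 2 lower (median 0.11), among them GINS4 from 36.3 ± 2.66 to 52.6 ± 1.69 CPM and the licensing factor CDC6 from 85.5 ± 3.42 to 109 ± 3.36 CPM (the call was lost without EV replicate 1 (adjusted p up to 0.056)). Of GINS4's exons, 23.6% lie opposite another gene. The G2 and mitosis list had 3 higher without EV replicate 1 or 2, 4 higher without EV replicate 3, 5 higher without RAD21OE replicate 2, 15 higher without RAD21OE replicate 3, 20 higher after the correction, none lower without EV replicate 1, 2 or 3, 1 lower after the correction, and 4 lower without RAD21OE replicate 1. The S phase list had 2 higher without EV replicate 1, 3 higher without EV replicate 2, 6 higher without EV replicate 3, 7 higher without RAD21OE replicate 2, none lower without EV replicate 1, 2 or 3 or RAD21OE replicate 2, and 4 lower without RAD21OE replicate 1. Of 33 genes of homologous recombination and the Fanconi pathway 7 rose and 2 fell, with FANCA at 0.62, RAD51C at 0.52 and BRIP1 at -0.83 (SE 0.13). The recombination list had 4 higher without EV replicate 1, 2 or 3 or RAD21OE replicate 2, 14 higher after the correction, and 1 lower without EV replicate 1, 2 or 3 or after the correction.

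Of 30 targets of p53, 12 fell and 3 rose (median -0.18). TP53INP1, a stress-induced regulator of autophagy, was at 51.7, 61.9 and 50.5 CPM with EV and 21.7, 19.6 and 16.7 CPM with RAD21OE (log2 fold change -1.50, SE 0.12, adjusted p = 5.3e-06). ZMAT3 (-0.76, SE 0.14), SPATA18 (-0.88, SE 0.12) and the death receptor gene FAS (-0.62, SE 0.12) also fell. AEN, an apoptotic nuclease, rose (0.38, SE 0.08). The p53 list had 1 higher without EV replicate 1, 2 or 3 or RAD21OE replicate 1 or 2, 6 lower without EV replicate 2, and 7 lower without EV replicate 1 or 3 or RAD21OE replicate 2. Of 15 regulators of the BCL2 family 3 rose and 4 fell (20% and 26.7%), against 14.1% and 13.7% of all genes tested. BCL2L11, the killer BIM, fell from 21.7 ± 2.87 to 12.7 ± 1.07 CPM, and BMF from 3.74 ± 0.583 to 1.36 ± 0.564 CPM, and the family had 1 higher without EV replicate 1, 2 or 3, and 2 lower without EV replicate 2. In the MYC network 2 of 12 rose and 3 fell (16.7% and 25%), against 14.1% and 13.7% of all genes tested. MYC was at 109, 104 and 121 CPM with EV and 137, 125 and 150.1 CPM with RAD21OE (log2 fold change 0.31, SE 0.09, adjusted p = 0.0258). The call for MYC was lost without EV replicate 1 or 2 (adjusted p up to 0.127). MXD4, an antagonist of MYC, fell (-0.52, SE 0.10). The MYC network had 1 higher without EV replicate 1 or 2, and 1 lower without EV replicate 1, 2 or 3 or RAD21OE replicate 1 or 2.

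Inflammatory genes of NF-kB split into 5 higher and 7 lower of 28. NFKB2, the p100 precursor, was at 79.2, 64.1 and 87.2 CPM with EV and 162, 135 and 153 CPM with RAD21OE (log2 fold change 0.96, SE 0.11, adjusted p = 8.32e-05), and the inhibitors NFKBIA and NFKBIE rose from 49.5 ± 2.22 to 68.5 ± 4.93 CPM and from 10.4 ± 1.98 to 19.1 ± 2.76 CPM. IL11, a cytokine of the IL-6 family, fell from 32.5 ± 3.74 to 16.1 ± 1.74 CPM, while its relative LIF rose from 87.8 ± 2.16 to 123 ± 12.9 CPM. The chemokines CCL5 (-2.14, SE 0.29) and CXCL8 (-1.43, SE 0.30) fell at levels under 6.5 CPM. The NF-kB list had 8 higher without RAD21OE replicate 3 or after the correction, and 4 lower without EV replicate 2 or 3. Of 16 genes of MHC class I presentation 4 fell and 1, TAP1, rose (median -0.22), with HLA-E at -0.46 and ERAP2 at -1.13. The presentation list had none higher without EV replicate 2, 2 lower without EV replicate 2 or 3 or RAD21OE replicate 2, and 9 lower without RAD21OE replicate 3 or after the correction.

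Epithelial genes did not move 1 way: 6 of 35 rose and 9 fell (median -0.08). Beside KRT8 and KRT18, CLDN1 of tight junctions and the factor GRHL1 rose, from 82.8 ± 4.80 to 115 ± 12.4 CPM and from 1.49 ± 0.345 to 5.06 ± 0.325 CPM. DSP and DSG2, of desmosomes, fell from 221 ± 21.5 to 149 ± 9.65 CPM and from 197 ± 12.3 to 146 ± 9.12 CPM, and so did CLDN4 (-0.89) and MUC1 (-1.25). Of 16 genes of lung and endoderm identity 2 rose and 4 fell. SOX2 was at 6.77, 7.58 and 6.10 CPM with EV and 3.25, 3.15 and 2.69 CPM with RAD21OE (log2 fold change -1.17, SE 0.18, adjusted p = 0.000607), and TP63, of basal cells, fell from 5.06 ± 1.04 to 1.54 ± 0.432 CPM. FOXA1 fell as well (-0.45; the call was lost without EV replicate 2 (adjusted p up to 0.0579)). The identity list had none higher without EV replicate 1, 2 or 3 or RAD21OE replicate 2, and 1 higher without RAD21OE replicate 1 or after the correction. Of 12 genes of CEACAM and mucin 2 rose and 3 fell, of 19 tested clustered protocadherins, many of which share exons, 1 rose and 2 fell, and of 3 tested metallothioneins 1 rose and 1, MT2A, fell (-0.56). CEACAM and mucin genes counted none higher without EV replicate 1 or RAD21OE replicate 2, 1 higher without EV replicate 3, and 1 lower without EV replicate 2, protocadherins none higher without EV replicate 1, 2 or 3 or RAD21OE replicate 2 or after the correction, 2 higher without RAD21OE replicate 3, and 1 lower without EV replicate 1, 2 or 3 or RAD21OE replicate 2 or 3, and metallothioneins none higher without EV replicate 1, 2 or 3 or RAD21OE replicate 1, 2 or 3, and 2 lower without RAD21OE replicate 1 or 3.

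Among noncoding genes, of 519 tested lincRNAs 10 were higher and 96 lower (median -0.32), and of 709 antisense genes 33 and 89 (median -0.23), against 2070 and 1814 of 13012 protein-coding genes (median 0.01). The share called lower was above the 13.7% of all genes tested for lincRNAs, but below it for antisense genes. For both classes the share called higher was below the 14.1% of all genes. These classes were not counted after the correction for GC content and exon length. GACAT2 was at 24.96, 25.7 and 24.4 CPM with EV and 5.72, 7.79 and 7.71 CPM with RAD21OE (log2 fold change -1.82, SE 0.14, adjusted p = 2.83e-06; 18.9% of its exons lie opposite another gene). LINC00173 fell from 13.3 ± 1.19 to 4.06 ± 1.32 CPM and AC048341.2 from 7.34 ± 0.851 to 2.26 ± 0.122 CPM. The largest rises among nuclear long noncoding genes with a mean of at least 4 CPM, pseudogenes not counted, were in AC026401.3 (0.92, SE 0.17), AL513165.1 (0.81, SE 0.19) and PRRT3-AS1 (0.83; 32.7% overlap on the other strand; the call was lost without EV replicate 2 or 3 (adjusted p up to 0.116)). Among autosomes, the median was highest on 22 (0.12), 16 (0.10), 17 (0.09) and 19 (0.09), where the median GC content of tested genes was 56.5%, 56.2%, 54.8% and 59.4%, against 49.5% over all. It was lowest on 18 (-0.15), 12 (-0.14) and 4 (-0.13), at 44.8%, 48.9% and 43.6%. After the correction chromosome 12 had a median of -0.11 with 97 genes higher and 249 lower, and the other chromosomes named here lay between -0.08 and 0.05.

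The opposite experiment, RAD21 knockdown in A549 by a short hairpin RNA against its own control, is set beside these results by fold change only, since it was run in another batch. The experiments share no library. After knockdown 14.4% of the genes tested in that table were higher and 10.9% lower. Of 2166 genes higher with RAD21OE and tested in both, 469 (21.7%) were lower after knockdown and 243 (11.2%) higher, where 12.9% and 16.7% of all genes tested in both were lower and higher after knockdown. Of 2092 genes lower with RAD21OE, 569 (27.2%) were higher after knockdown and 293 (14%) lower. As a share of the 1971 genes lower after knockdown, 23.8% were higher and 14.9% lower with RAD21OE, and of the 2549 higher after knockdown 9.53% were higher and 22.3% lower. Without replicate 3 of the knockdown libraries, which stood apart from its replicates, these numbers were 1008 and 366, and 855 and 379, with 24.3% and 27.8% of all genes lower and higher. The difference between the shares was not tested.

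Among the genes of largest change, some moved in opposite directions. SHISA3 had log2 fold changes of 3.42 with RAD21OE and -2.42 with knockdown (adjusted p = 3.41e-08), ANKRD1 1.61 and -1.42, C3 -2.52 and 1.74, DOCK2 -2.0 and 2.06, TGFBI -1.32 and 0.70, and TGM2 -2.06 and 0.64. In others both experiments gave the same sign, past the threshold in both. These included ITGA11 -2.20 and -2.48, SLITRK6 -1.84 and -3.74, SPARC -2.50 and -1.16, KRT4 1.71 and 0.96, and KLF2 2.07 and 0.42. AKR1B10 had 1.06 and 0.71, and KRT18 0.54 and 0.84. OSGIN1, NECAB2, CDRT1, DRP2, DLK2, SPOCK1, OASL, ANPEP and CCNG2 did not pass the test after knockdown with all libraries. By the same test without replicate 3 of the knockdown libraries, OSGIN1 was lower (log2 fold change -0.70, adjusted p = 6.85e-12). CDRT1 was then higher (0.63, adjusted p = 0.0317), and the others still did not pass. The median of the 10 genes of MAPK activity was 0.16 with RAD21OE and -0.87 after knockdown, with 3 higher and none lower against 1 higher and 9 lower. Of interferon-stimulated genes 4 rose and 28 fell with RAD21OE, and 22 rose and 3 fell after knockdown, among 55 tested there. Of NRF2 targets 22 and 17 rose, and of mitochondrial mRNAs 13 fell with RAD21OE, while none fell and 1 rose after knockdown.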

How the data were processed

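Per the labels' protocols, TRIzol was used for total RNA and the VAHTS Universal V6 kit for libraries. The selection of mRNA and strandedness are not stated there. The deposited tables give raw counts, as whole numbers of reads for each gene. The submitters' processing notes list HISAT2 2.0.5, featureCounts 1.5.0-p3, fastp and the build hg38. All 58735 genes equal GENCODE 29 in position and exon length, and 0 count columns were left without a sample.

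The 6 libraries of the overexpression table were fitted alone in R 4.3.3 with edgeR 4.0.16: genes kept by filterByExpr, TMM scaling, 1 mean per group and a two-sided quasi-likelihood F-test, with Benjamini-Hochberg adjustment over all genes tested and a threshold of 0.05. The SE is the absolute log2 fold change over the square root of F. The knockdown table was fitted the same way. The scripts were tested on simulated data, where more of the calls were false than the threshold of 0.05 allows, so an adjusted p near it is weak evidence. The test's criterion for recovering changed genes was narrowed to genes from 10 CPM after DESeq2 had missed it among lower genes. No set test was run; lists are described by counts and medians.

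The members and the 46 gene lists were chosen with earlier results of these data known. The text names RAD21; in each direction, the 10 protein-coding genes of largest log2 fold change (adjusted p under 0.05, mean of at least 4 CPM, groups not overlapping); by the same criteria the 8 nuclear protein-coding genes with the largest gain and the 8 with the largest loss in CPM and the 3 long noncoding genes in each direction; per list up to 4 risen and 4 fallen members with the smallest adjusted p; and every member of the cohesin, H3K4 and MAPK score lists. A few genes that these rules take are not reported here. The transition factors, the promoters shown, SLC7A11, the low-level genes and some mitochondrial RNAs were picked once their values were known.

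The alternatives tried were DESeq2 1.42.0's size factors and Wald test, library totals alone, no filter, at least 10 CPM in 3 libraries, limma-voom 3.58.1, robust dispersion, the replicate number as a block, GC content and exon length offsets by lowess (span 0.3), and each library left out. Chosen after seeing the data were that correction without RAD21OE replicate 3, the knockdown without its replicate 3 and the promoter window. Figures were drawn in Python 3.11.15 with matplotlib 3.10.9.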

Additional observations from a re-analysis of the deposited data

How the results depend on the processing

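RAD21 stayed past the threshold under all 16 alternatives, with log2 fold changes between 2.82 and 3.00. With 1 library left out, the genes higher numbered between 1112 and 2848 and the genes lower between 1065 and 2688, with the fewest without EV replicate 2 and the most without RAD21OE replicate 3. The other alternatives kept both numbers within 1.5 times of 2177 and 2120, from 1579 and 1563 with at least 10 CPM in 3 libraries to 3243 and 2809 once GC content and length were corrected. With the replicate block, 2171 genes were higher and 2216 lower. Same-numbered libraries correlated at -0.002, 0.067 and 0.035 in their deviations, and differently numbered ones at -0.051 to 0.014. With 3 libraries a group, these small values cannot decide whether the numbers pair the samples. Of 242 called genes that the naming rules took, besides RAD21, 149 kept the call under every alternative that gave a value, 93 lost it under at least 1, and 0 reversed. No scaling moved the median of all genes by more than 0.1. At 13024640 to 14276335 counts a library, a gene under 1 CPM rests on about 14 counts or fewer, and changes at that level carry wide errors.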

Other observations

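Below the level used for naming genes, some protein-coding genes fell by more than those described above. They are given here, with some low-level rises that were smaller than that of SHISA3, as values chosen after they were seen. TAF11L12, a member of the TAF11-like genes of chromosome 5, had 38, 37 and 33 counts with EV and 0, 0 and 0 with RAD21OE, which makes it at least 36.8-fold lower when a group floor of 3 counts is used (adjusted p = 2.39e-05). EDIL3, a secreted integrin ligand, was at 6.85, 6.98 and 5.66 CPM with EV and 0.0706, 0.225 and 0.291 CPM with RAD21OE (log2 fold change -5.0, SE 0.34, adjusted p = 1.05e-06). TNFSF14, the cytokine LIGHT, lies next to C3 on chromosome 19 and fell with it, from 55 counts in the EV libraries to 3 in the RAD21OE libraries (log2 fold change -4.07, SE 0.66, adjusted p = 0.000778). PTPRN, of secretory vesicles, fell from 2.78 ± 0.244 to 0.267 ± 0.0842 CPM, CDH11, a mesenchymal cadherin, from 2.33 ± 0.944 to 0.265 ± 0.181 CPM, and UGT2B15, a steroid glucuronidating enzyme, from 2.45 ± 0.282 to 0.292 ± 0.193 CPM (mean ± SD, n = 3).

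Of the low-level rises, EPHA7, an Eph receptor, was at 0.221, 0.0758 and 0.367 CPM with EV and 1.98, 2.10 and 2.40 CPM with RAD21OE (log2 fold change 3.22, SE 0.42, adjusted p = 0.000187), and it also rose after knockdown (log2 fold change 1.54, adjusted p = 0.000428). PWP2, of small subunit ribosomal RNA processing, was at 0.515, 0.455 and 0.881 CPM with EV and 6.08, 7.72 and 1.31 CPM with RAD21OE (log2 fold change 3.0, SE 0.56, adjusted p = 0.00203), with RAD21OE replicate 3 far below the other 2 libraries of its group. GAS2 (2.33, SE 0.48) and NMUR2 (2.62, SE 0.65) rose from 9 and 7 counts over the EV libraries to 48 and 46 over the RAD21OE libraries. The calls of all genes named in these 2 paragraphs held under every alternative that gave a value.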
